A study of Anopheles gambiae with 9 samples.

Results

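Transcripts of 10 dynein genes were followed in the pedicel of *Anopheles gambiae*, the antennal segment that holds the Johnston's organ, the mosquito's ear. The genes account for 13 of the 16066 transcripts and 10 of the 13845 genes in the table, and all 13 transcripts passed the filter on low counts. A transcript of each of 9 genes had been put forward by the study as upregulated in males, from these same libraries, so that values of these 9 transcripts are given here as a description and without a test. The study had placed AGAP011540-RA and AGAP008689-RB among transcripts higher in all 3 comparisons below, AGAP009568-RA, AGAP011441-RA, AGAP000320-RA, AGAP010165-RA and AGAP004416-RA among those higher in both groups than in control females, and AGAP004030-RA and AGAP006887-RA among those higher only in males against control females. The last gene, AGAP011539, carries no name in the sources used here and is counted among the dyneins because the study's list of dynein genes holds it.

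The 9 libraries fell into 3 groups of 3. Control females were dsxF+/+ XX and control males dsxF+/+ XY, both from the G3 strain. Intersex mosquitoes were dsxF-/- XX, which are XX animals without the female isoform of doublesex, from a separate doublesexF mutant strain. Pupae of the control groups were separated by sex and caged apart and those of the mutant strain were not, so strain background and caging cannot be told apart from the mutation. Each library was a pool of 63 to 76 pedicels. Adults entered a light/dark cycle at an age of 2 to 3 days, stayed in it for 3 days and were frozen as the light began to fall. The comparisons are those of males with females (MvF), of intersex with females (IvF) and of males with intersex (MvI). Every difference is the first-named group minus the second, and MvF and IvF share the same female libraries.

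Dyneins are motors that walk along microtubules on the energy of ATP. The axonemal kind forms the inner and outer arms that slide neighbouring doublet microtubules past each other and so bend motile cilia and sperm tails, while the cytoplasmic kind carries cargo and, inside cilia, takes material back towards the cell body. A dynein is built from heavy chains, which hold the motor, and from intermediate, light intermediate and light chains, which assemble the complex and tie it to its partners. The neurons of the Johnston's organ are chordotonal neurons with a ciliary axoneme that bears dynein arms, and in *Drosophila* axonemal dyneins are needed for active hearing.

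Library totals were 15912671 to 17188581 estimated counts in females, 14177255 to 17477058 in intersex and 14708863 to 18379886 in males. The 10 genes took 0.0350 to 0.0618% of all counts in females, 0.120 to 0.123% in intersex and 0.173 to 0.227% in males. In 1 female library, replicate 3, the 10 most abundant transcripts took 23.7% of counts, against 8.95 to 14.2% in the other libraries. Transcripts of the auditory neuron genes also differed between the groups, although the study had listed both as upregulated on these libraries. The TRP channel gene *nanchung* (AGAP012241) stood at 58.8 to 74.2 CPM (counts scaled to equal depth) in females, 154 to 197 in intersex and 217 to 244 in males, and *nompB* (AGAP006324), needed for building sensory cilia, at 19.2 to 26.1, 41.4 to 51.7 and 40.0 to 44.6. On stained sections the study saw more neurons in intersex than in control female organs and fewer than in male ones, and left counting them to further work. In tissue RNA a larger number of ciliated neurons cannot be told apart from more RNA per neuron, and the part of either in the values below was not tested. No identifier in these files could be assigned to *dsx*, so the genotypes were not checked on RNA. Levels below are normalized counts, which are estimated counts scaled to a common library size (TMM). They are not corrected for transcript length and are therefore compared between libraries but not between genes.

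**Figure D1:**
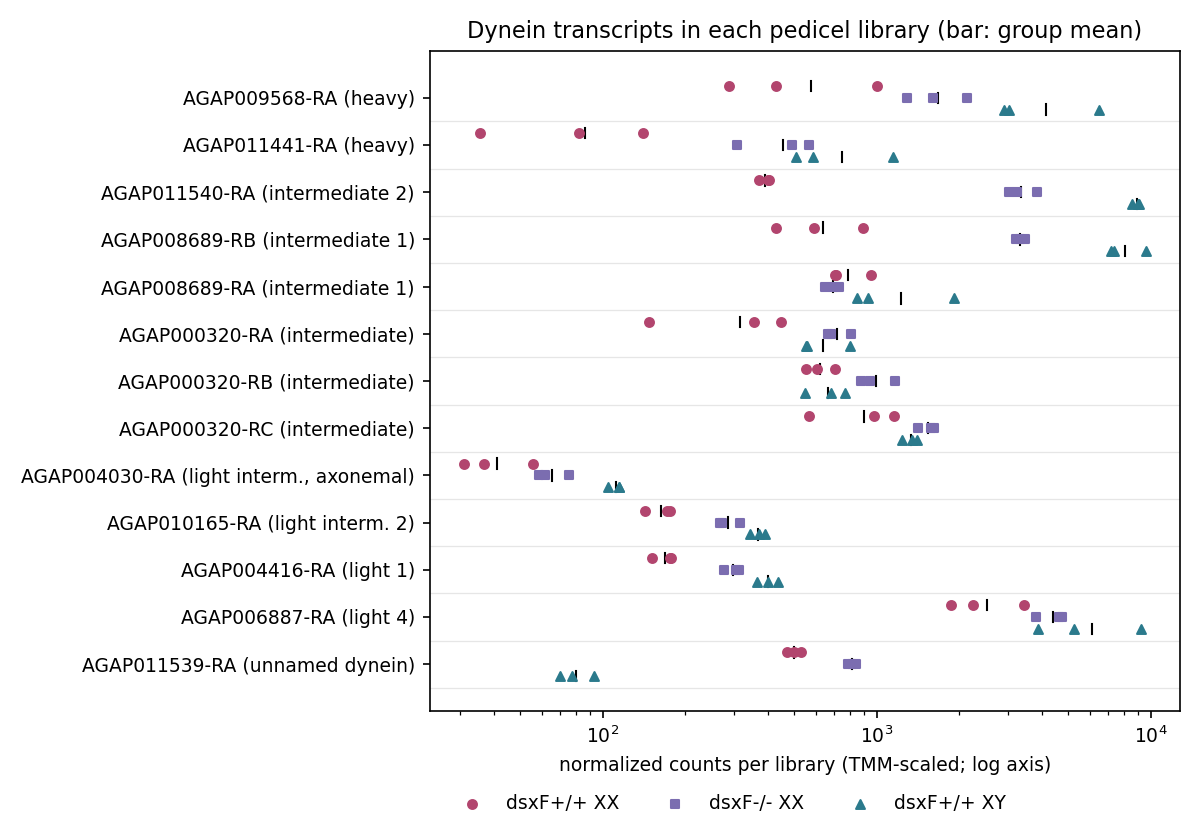
Normalized counts (log axis) of the 13 dynein transcripts in each of the 9 pedicel libraries, with circles for dsxF+/+ XX, squares for dsxF-/- XX, triangles for dsxF+/+ XY and a bar at each group's mean. The male libraries lie to the right for most rows, whereas for AGAP011539-RA in the bottom row they lie between 69.5 and 92.5, below all others.

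Both heavy chain genes stood at a several-fold higher level in males than in females, with intersex libraries between the group means. Heavy chains carry the ATPase ring and the stalk that grips the microtubule, and the names in the study do not say whether these chains are axonemal. For AGAP009568-RA the counts were 429, 1003 and 289.7 in females, 2124, 1291 and 1601 in intersex and 3025, 6444 and 2919 in males. The 3 groups did not overlap, and the male mean was 7.19-fold the female mean and 2.47-fold the intersex mean. Counts of AGAP011441-RA were 35.7, 140.1 and 81.6 in females, 490, 309 and 565 in intersex and 584, 1144 and 509 in males. All intersex and male libraries lay above the highest female library, but the intersex and male libraries overlapped. The log2 fold changes (± standard error, edgeR) of AGAP009568-RA were 2.85 ± 0.51 in MvF, 1.54 ± 0.49 in IvF and 1.30 ± 0.48 in MvI, and those of AGAP011441-RA 3.12 ± 0.52, 2.40 ± 0.51 and 0.71 ± 0.47.

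The heavy chains also varied widely within the control groups, with coefficients of variation of 46.5 to 65.9%. Female replicate 2 and male replicate 2 held the highest count of their group for both heavy chains. The second female library stood at 2.79 times the mean of the other 2 females for AGAP009568-RA and at 2.39 times for AGAP011441-RA, and the second male library at 2.17 and 2.09 times. Over all transcripts tested the middle 90% of such ratios ran from 0.477 to 2.72 in females and from 0.350 to 2.40 in males. The second intersex library did not share this and stood at 0.693 and 0.585 times the mean of the other 2. The second libraries of the groups fall in the same run of the sample-sheet numbers in the column names. These runs are stretches of consecutive numbers set here, and no label names them as batches. The second libraries of females and males deviated together (r = 0.520), whereas that of intersex deviated with neither (r = -0.172 and -0.0942). Replicate numbers did not otherwise pair the libraries, with r of -0.344 to 0.229 for the other same-numbered pairs.

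The axonemal intermediate chain 2 transcript, AGAP011540-RA, had the largest MvF difference of the 13. In *Chlamydomonas* and in humans this chain belongs to the outer dynein arm, where intermediate chains 1 and 2 form a pair at the base of the arm. Its counts were 401, 402 and 370.1 in females, 3241, 3840 and 3032 in intersex and 9010, 8563 and 9052 in males. Libraries of 1 group lay close together, with means of 391 ± 18.1, 3371 ± 420 and 8875 ± 271 (SD, n = 3), and no group overlapped another. The male mean was 22.7-fold the female mean and 2.63-fold the intersex mean, with log2 fold changes of 4.50 ± 0.19 in MvF, 3.11 ± 0.18 in IvF and 1.40 ± 0.17 in MvI. Unlike the heavy chains, this transcript stood at 1.04 times the mean of the other females in the second female library and at 0.948 times that of the other males in the second male library.

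The axonemal intermediate chain 1 gene, AGAP008689, has 2 transcripts in the table, and they differed in how the groups compared. Counts of AGAP008689-RB were 429, 889 and 591 in females, 3475, 3317 and 3219 in intersex and 7341, 9570 and 7140 in males. The groups did not overlap, and the log2 fold changes were 3.66 ± 0.29 in MvF, 2.39 ± 0.28 in IvF and 1.26 ± 0.27 in MvI. The other transcript, AGAP008689-RA, which the study had not put forward, had 709, 948 and 704 counts in females, 729, 648 and 691 in intersex and 845, 1914 and 926 in males. Its groups overlapped in MvF and IvF. With edgeR it did not pass the threshold of an adjusted p under 0.05 in MvF (log2 fold change 0.64 ± 0.31, adjusted p = 0.142), in IvF (-0.19 ± 0.31, adjusted p = 0.747) or in MvI (0.83 ± 0.31, adjusted p = 0.166). Without the second male library its MvF value was 0.17 and its MvI value 0.36.

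The counts of AGAP008689 were therefore split differently between its transcripts in females than in the other groups. AGAP008689-RB took 37.7, 48.4 and 45.6% of the gene's counts in females, 82.7, 83.7 and 82.3% in intersex and 89.7, 83.3 and 88.5% in males. Every intersex and male library was above every female library, and the intersex and male libraries overlapped. The mean share was 43.9 ± 5.57% in females, 82.9 ± 0.691% in intersex and 87.2 ± 3.38% in males (SD, n = 3). In a test of transcript usage over 3213 transcripts of 1313 genes (edgeR diffSpliceDGE) AGAP008689-RA was called in MvF and in IvF but not in MvI, and AGAP008689-RB in none of the 3 comparisons, against 4.51, 1.37 and 0.903% of transcripts called there. Nothing is read from the shares or from these calls because AGAP008689-RB had been picked for its rise. The IvF call of AGAP008689-RA was lost when female replicate 3 or any 1 of the 3 intersex libraries was left out. None of the counts of either transcript were whole numbers, so that reads shared between both were divided by kallisto's estimate.

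**Figure D2:**
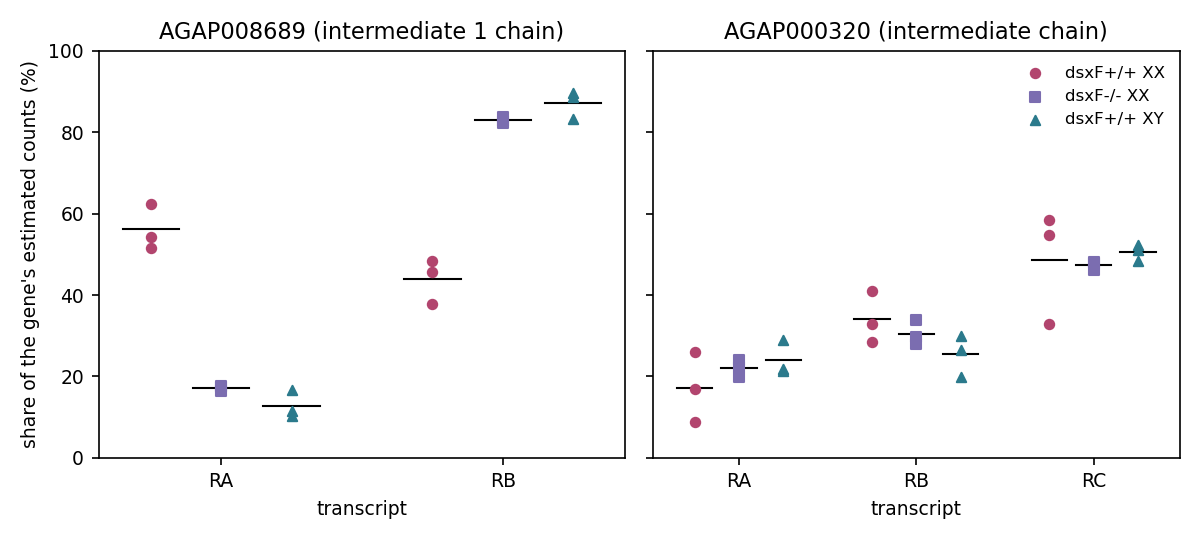
Share (%) of a gene's estimated counts assigned to each of its transcripts in the 9 libraries, for AGAP008689 on the left and AGAP000320 on the right, with circles for dsxF+/+ XX, squares for dsxF-/- XX, triangles for dsxF+/+ XY and a line at the group mean. AGAP008689-RB rises from a mean of 43.9% in females to 82.9 and 87.2%, while the AGAP000320 shares overlap between the groups.

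The remaining intermediate chain gene, AGAP000320, whose name does not say whether the chain is axonemal or cytoplasmic, has 3 transcripts and was highest in intersex rather than in males. Intermediate chains of cytoplasmic dynein bind the dynactin complex in mammals. Counts of AGAP000320-RA, the transcript the study had put forward, were 147, 356 and 447 in females, 805, 661 and 683 in intersex and 552, 796 and 555 in males. Females lay below both other groups, which overlapped, and the log2 fold changes were 1.00 ± 0.36 in MvF, 1.18 ± 0.36 in IvF and -0.18 ± 0.35 in MvI. Counts of AGAP000320-RB were 551, 606 and 702 in females, 942, 877 and 1161 in intersex and 682, 546 and 763 in males. All 3 intersex libraries lay above all control libraries. The IvF difference of AGAP000320-RB was 0.68 ± 0.20 on the log2 scale and narrowly missed the threshold (edgeR adjusted p = 0.0556), although DESeq2 called it (adjusted p = 0.0160).

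AGAP000320-RC, the third transcript of that gene, had 976, 1159 and 564 counts in females, 1621, 1413 and 1577 in intersex and 1347, 1403 and 1234 in males. Again the intersex libraries lay above all others, with an IvF log2 fold change of 0.77 ± 0.25 that edgeR did not call (adjusted p = 0.0791) and DESeq2 did (adjusted p = 0.0305). Neither AGAP000320-RB nor AGAP000320-RC was called by edgeR in MvF or MvI (adjusted p of 0.727 and 0.118 in MvF and of 0.130 and 0.723 in MvI), but AGAP000320-RC was called in MvF and IvF when the second female library was left out (adjusted p = 0.0353 and 0.0315). AGAP000320-RB was called in IvF without the second male library (adjusted p = 0.0434). Summed over the gene the counts were 1673, 2121 and 1713 in females, 3369, 2951 and 3421 in intersex and 2581, 2745 and 2552 in males, so that the 3 groups did not overlap on the gene sum. The gene sum was nevertheless not called in MvI (log2 fold change -0.30 ± 0.18, edgeR adjusted p = 0.414). Shares of the 3 transcripts within the gene overlapped between the groups, with AGAP000320-RC at means of 48.6, 47.4 and 50.6% in females, intersex and males.

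Transcripts of the light intermediate chains stood in the order female, intersex, male without overlap. The axonemal light intermediate chain, AGAP004030-RA, is related to the p28 chain of the inner arms in *Chlamydomonas*. It was measured at low counts, with 55.8, 36.9 and 31.0 counts in females, 58.2, 61.4 and 75.4 in intersex and 115, 105 and 115 in males. Its lowest intersex library was only just above its highest female library, and the log2 fold changes were 1.43 ± 0.32 in MvF, 0.65 ± 0.32 in IvF and 0.78 ± 0.31 in MvI. AGAP010165-RA is named light intermediate chain 2, which in mammals is the name of a cytoplasmic dynein subunit that holds cargo adaptors. Its counts were 172, 175 and 143 in females, 267, 317 and 273 in intersex and 345, 372 and 390.3 in males, with log2 fold changes of 1.18 ± 0.18, 0.81 ± 0.18 and 0.37 ± 0.18.

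The axonemal light chain 1, AGAP004416-RA, which in *Chlamydomonas* sits on the motor domain of an outer arm heavy chain, had 177, 176 and 152 counts in females, 276, 305 and 315 in intersex and 435, 364 and 402 in males. These groups were also ordered without overlap, with log2 fold changes of 1.25 ± 0.18 in MvF, 0.83 ± 0.18 in IvF and 0.42 ± 0.17 in MvI. AGAP006887-RA, named axonemal light chain 4, had 2235, 3449 and 1861 counts in females, 4726, 4617 and 3806 in intersex and 5228, 9236 and 3867 in males. Females lay below both other groups, and males overlapped with intersex because the third male library was below 2 of the intersex libraries. The log2 fold changes of AGAP006887-RA were 1.28 ± 0.35, 0.80 ± 0.34 and 0.48 ± 0.34, and the second female and second male libraries stood at 1.68 and 2.03 times the mean of the others in their group.

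**Figure D3:**
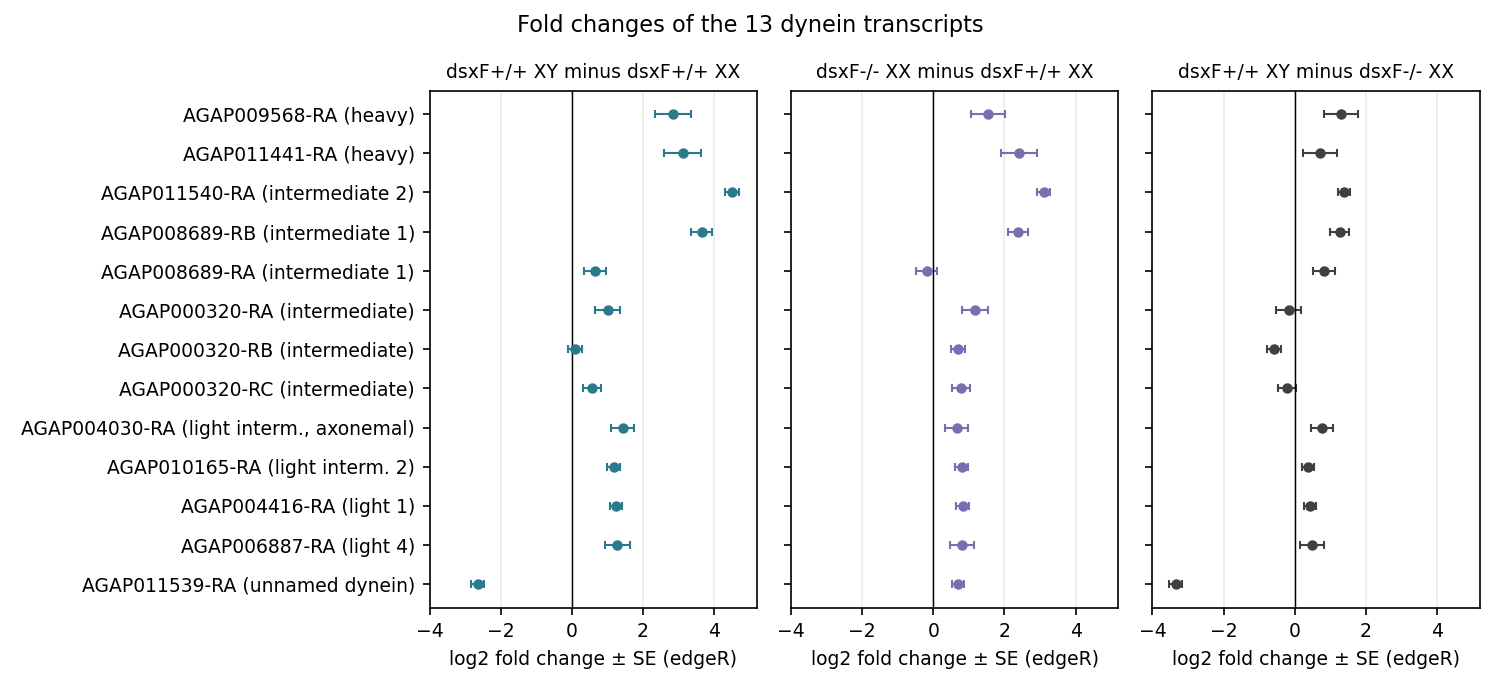
Log2 fold change (points) and its standard error (bars) from edgeR for the 13 dynein transcripts, with MvF on the left, IvF in the middle and MvI on the right. The largest MvF value is 4.50 for AGAP011540-RA, and AGAP011539-RA at the bottom is at -2.65 in MvF and -3.35 in MvI.

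Of the 13 transcripts, edgeR called 8 higher and 1 lower in MvF, where 11.7% of all 12379 transcripts tested were called higher and 18.1% lower. In IvF 6 were called higher, against 4.18% of all transcripts, and none lower (0 also with DESeq2 and limma-voom, and 0 at an unadjusted p under 0.05), against 6.87%. In MvI 2 were called higher and 1 lower, against 1.3 and 6.09%. All libraries of 1 group lay above all of the other for 10 transcripts and below for 1 in MvF (20.1 and 23.4% of all transcripts), for 12 and 0 in IvF (13.4 and 17.4%) and for 7 and 3 in MvI (11.6 and 16.4%). The study had chosen 9 of these transcripts by the same comparisons, so nothing is read from the counts. Median log2 fold changes of the 13 were 1.25 in MvF, 0.81 in IvF and 0.48 in MvI, against 0.02, -0.00 and 0.02 over all transcripts. The IvF count of 6 fell to 2 without female replicate 3 and to 2, 3 and 2 without intersex replicate 1, 2 and 3, and was 10 with DESeq2. The MvI count of 2 fell to 1 without any 1 of the 3 intersex libraries, without male replicate 2 or without male replicate 3. On gene sums 9 genes were called higher and 1 lower in MvF, 7 higher and 0 lower in IvF (0 lower also with DESeq2 and at an unadjusted p under 0.05) and 2 higher and 1 lower in MvI, against 13.1, 19.5, 5.05, 9.4, 1.57 and 7.66% of 10479 genes. The MvF count of 9 fell to 7 without female replicate 1, female replicate 3 or male replicate 2. It fell to 8 without any 1 of the intersex libraries, without male replicate 1 or 3, and with a replicate block. The IvF count of 7 fell to 3 without female replicate 3 and to 4, 6 and 3 without intersex replicate 1, 2 and 3. The MvI count of 2 fell to 1 without intersex replicate 2.

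Folds of the 9 transcripts put forward by the study ran from 2.00 to 22.7 in MvF, from 1.58 to 8.62 in IvF and from 0.886 to 2.63 in MvI. Those of *nanchung* were 3.48, 2.72 and 1.28, so that 4 of 9 dynein transcripts had a larger fold than *nanchung* in MvF, 4 of 9 in IvF and 8 of 9 in MvI. Beside *nompB*, whose folds were 1.90, 2.06 and 0.922, the numbers were 9, 5 and 8 of 9. The *nompB* mean was lower in males than in intersex, while the median MvI log2 fold change over all transcripts was 0.02. A larger fold than that of *nompB* in MvI therefore does not set the dyneins apart. Shares of all transcripts above the marker folds were not counted. These 9 transcripts and both markers came from lists chosen on these libraries, and no test was made of the difference.

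Where males and females did not overlap, the intersex level was expressed as a position between the controls, with the log2 female mean set to 0 and the log2 male mean to 1. AGAP011540-RA stood at 0.69 and AGAP008689-RB at 0.65 of the way, with an SD over the 3 intersex libraries of 0.0390 and 0.0152. The heavy chains stood at 0.54 (AGAP009568-RA) and 0.77 (AGAP011441-RA), the light intermediate chains at 0.46 (AGAP004030-RA) and 0.68 (AGAP010165-RA) and the light chains at 0.66 (AGAP004416-RA) and 0.63 (AGAP006887-RA), with SDs of 0.0787 to 0.146. The intermediate chain transcripts AGAP000320-RA and AGAP000320-RC had intersex means beyond the male mean, at 1.17 ± 0.153 and 1.38 ± 0.187. However, the intersex and male libraries of AGAP000320-RA overlapped, and AGAP000320-RC was not called in MvI. AGAP011539-RA lay outside the controls on the female side, at -0.27 ± 0.0185. Which of the 8 intermediate positions differ from one another was not tested. The position of AGAP006887-RA moved to 0.94 without the second male library.

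**Figure D4:**
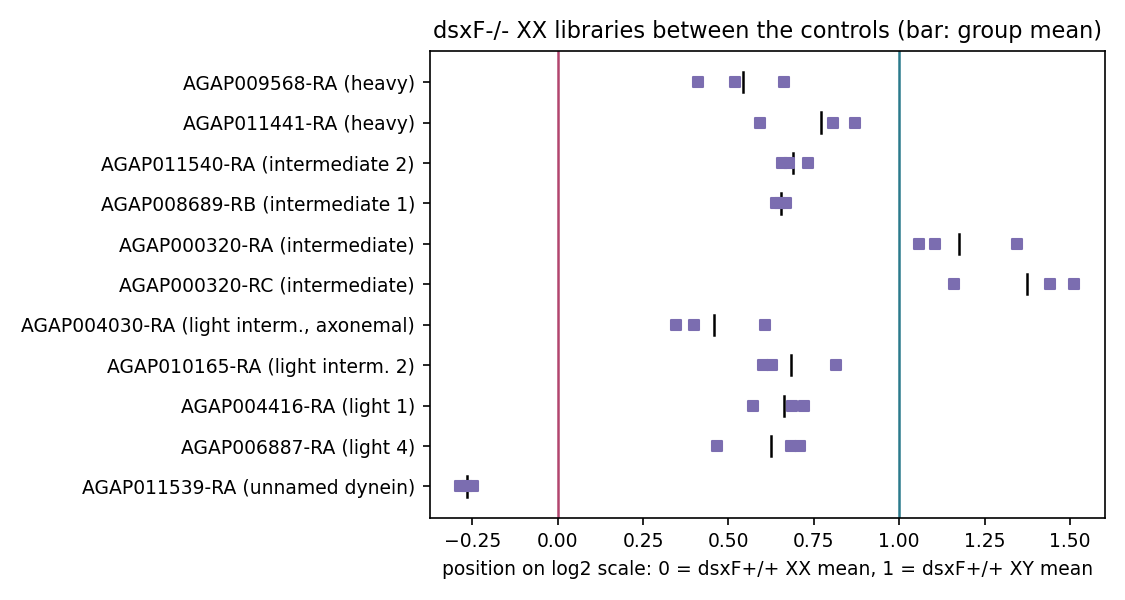
Position of each dsxF-/- XX library (squares) and of the dsxF-/- XX group mean (bars) on a log2 scale on which the dsxF+/+ XX mean is 0 and the dsxF+/+ XY mean is 1, for the 11 dynein transcripts whose control groups did not overlap. Transcripts of 8 genes lie between the lines, those of AGAP000320 beyond the male line and AGAP011539-RA at -0.27.

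AGAP011539-RA ran opposite to the other members in MvF. It had not been put forward by the study among transcripts higher in males, and it was the only transcript of the 13 to be lower in males than in females. Its counts were 498, 530.1 and 470.1 in females, 812, 787 and 842 in intersex and 69.5, 92.5 and 77.2 in males. The groups did not overlap and had means of 499.5 ± 30.0, 814 ± 27.6 and 79.7 ± 11.7 (SD, n = 3). It fell by 2.65 ± 0.18 on the log2 scale in MvF (edgeR adjusted p = 2.69e-05) and fell by 3.35 ± 0.18 in MvI (edgeR adjusted p = 4.50e-05), so that the male mean was 0.160 of the female and 0.0980 of the intersex mean. In IvF it rose by 0.70 ± 0.16 (edgeR adjusted p = 0.0268), a 1.63-fold difference.

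Both lower values of AGAP011539-RA in males were called under every alternative run, with log2 fold changes of -2.76 to -2.56 in MvF and -3.47 to -3.26 in MvI when each library was left out. The rise in IvF was less firm. Its call was lost without female replicate 1 or 3, without any 1 of the intersex libraries and without male replicate 3 (adjusted p of 0.0510 to 0.106) and with a replicate block (adjusted p = 0.0528), although the value stayed between 0.67 and 0.75 when libraries were left out. Since the counts of AGAP011539-RA and AGAP011540-RA were whole numbers in all 9 libraries (to within 1e-06), no division of reads with another transcript was seen in either. The ratio of AGAP011540-RA to AGAP011539-RA counts was 0.804, 0.759 and 0.787 in females, 3.99, 4.88 and 3.6 in intersex and 129.6, 92.6 and 117 in males. The ranges of this ratio did not overlap between the groups.

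The study's list of dynein genes, drawn up for its comparison of pedicels with testes, holds 30 further genes with 33 transcripts. Of these, 5 had counts at or near 0 and were not tested, and 28 were tested. In MvF 7 were called higher and 3 lower, in IvF 8 higher and 0 lower, and in MvI 0 higher and 4 lower. At an unadjusted p under 0.05 edgeR found 0 lower in IvF and 3 higher in MvI, and with DESeq2 these counts of 0 were 0 and 1. The backgrounds were 11.7 and 18.1% in MvF, 4.18 and 6.87% in IvF and 1.3 and 6.09% in MvI, beside 25, 10.7, 28.6, 0, 0 and 14.3% of these 28 transcripts. The median log2 fold change was 0.45 in MvF, 0.64 in IvF and -0.09 in MvI, beside 0.02, -0.00 and 0.02 over all transcripts.

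The calls split by whether the study had placed a transcript on one of its lists of transcripts higher in males. All 7 higher calls in MvF were among the 9 listed transcripts. The 19 tested transcripts on no such list had 0 higher and 3 lower calls in MvF (1 higher at an unadjusted p under 0.05), 3 higher and 0 lower in IvF, and 0 higher and 4 lower in MvI. This split follows from the way the lists were made and says nothing about the genes. In IvF the count of 8 higher calls became 13 without the second female library, 4 without female replicate 3 and 5 without intersex replicate 1 or 3, and the 7 higher calls in MvF became 13 without the second female library. With the libraries blocked by runs of sample-sheet numbers there were 8 higher and 2 lower calls in MvF, since AGAP010790-RA, on a list, was gained and AGAP001672-RB lost. The 4 lower calls in MvI fell to 2 without intersex replicate 2 or 3.

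Of the listed transcripts, the 4 with the smallest p in MvF are given as values only. AGAP007597.R77 had 168, 239.5 and 189.7 counts in females, 1410, 1322 and 1196 in intersex and 1139, 1416 and 1002 in males, so that intersex and males overlapped far above females. AGAP009318-RA, from the Tctex1 family of dynein light chains, showed the same order, with log2 fold changes of 2.18 ± 0.18 in MvF and 2.31 ± 0.18 in IvF. AGAP003271.R81 and AGAP010435.R331, which carry no name, reached very high counts, and the second library of both controls was the highest of its group for each. Counts of AGAP003271.R81 were 13260, 33690 and 14670 in females, 112800, 81240 and 105400 in intersex and 178300, 300900 and 193100 in males, and its log2 fold change was 3.45 ± 0.41 in MvF and 2.28 ± 0.39 in IvF. For AGAP010435.R331 these values were 3.28 and 2.14.

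The 3 transcripts called lower in males than in females among the other dyneins were on no list. AGAP005171-RA had 380.4, 369 and 299 counts in females, 857, 929.9 and 859 in intersex and 62.1, 139 and 76.3 in males. As with AGAP011539-RA, intersex libraries were the highest and males the lowest, without overlap. The log2 fold change of AGAP005171-RA was -1.92 ± 0.29 in MvF (edgeR adjusted p = 0.00106), 1.33 ± 0.28 in IvF (adjusted p = 0.0172) and -3.26 ± 0.30 in MvI (adjusted p = 5.15e-04). Its IvF call was lost without female replicate 3 or any 1 of the intersex libraries (adjusted p of 0.0528 to 0.0681).

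AGAP001229-RA had 8534, 6787 and 6996 counts in females, 6490, 8492 and 5848 in intersex and 3863, 4109 and 4317 in males, with intersex libraries spread over the female range. It fell by 0.86 ± 0.20 on the log2 scale in MvF (edgeR adjusted p = 0.0109), a call that remained when any library was left out but not at an adjusted p under 0.01. In MvI it stood at -0.76 ± 0.20 and narrowly missed the threshold (edgeR adjusted p = 0.0519). DESeq2 called it there (adjusted p = 0.00171), as edgeR did on the gene sum (adjusted p = 0.0446). Counts of AGAP001672-RB, the last of the 3, were 1135, 4513 and 661 in females, 3792, 2453 and 2079 in intersex and 447, 345 and 633 in males. The female libraries differed more than 6-fold among themselves. Its MvF value of -2.15 ± 0.64 (edgeR adjusted p = 0.0321) became -0.92 without the second female library (adjusted p = 0.0771), where its IvF value rose from 0.40 to 1.63 and was called (adjusted p = 0.0279). The MvF call was also lost without any 1 of the male libraries, and with the libraries blocked by runs of sample-sheet numbers (adjusted p = 0.0704). A replicate block (adjusted p = 0.0934), limma-voom (0.0586) and only the groups compared (0.0580) lost it too. In MvI AGAP001672-RB was at -2.55 ± 0.65 (adjusted p = 0.0462), a call lost without any 1 of the intersex or male libraries (adjusted p of 0.0794 to 0.154). The MvI call was also lost with the replicate block (adjusted p = 0.0873) and the block on runs (0.0632).

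**Figure D5:**
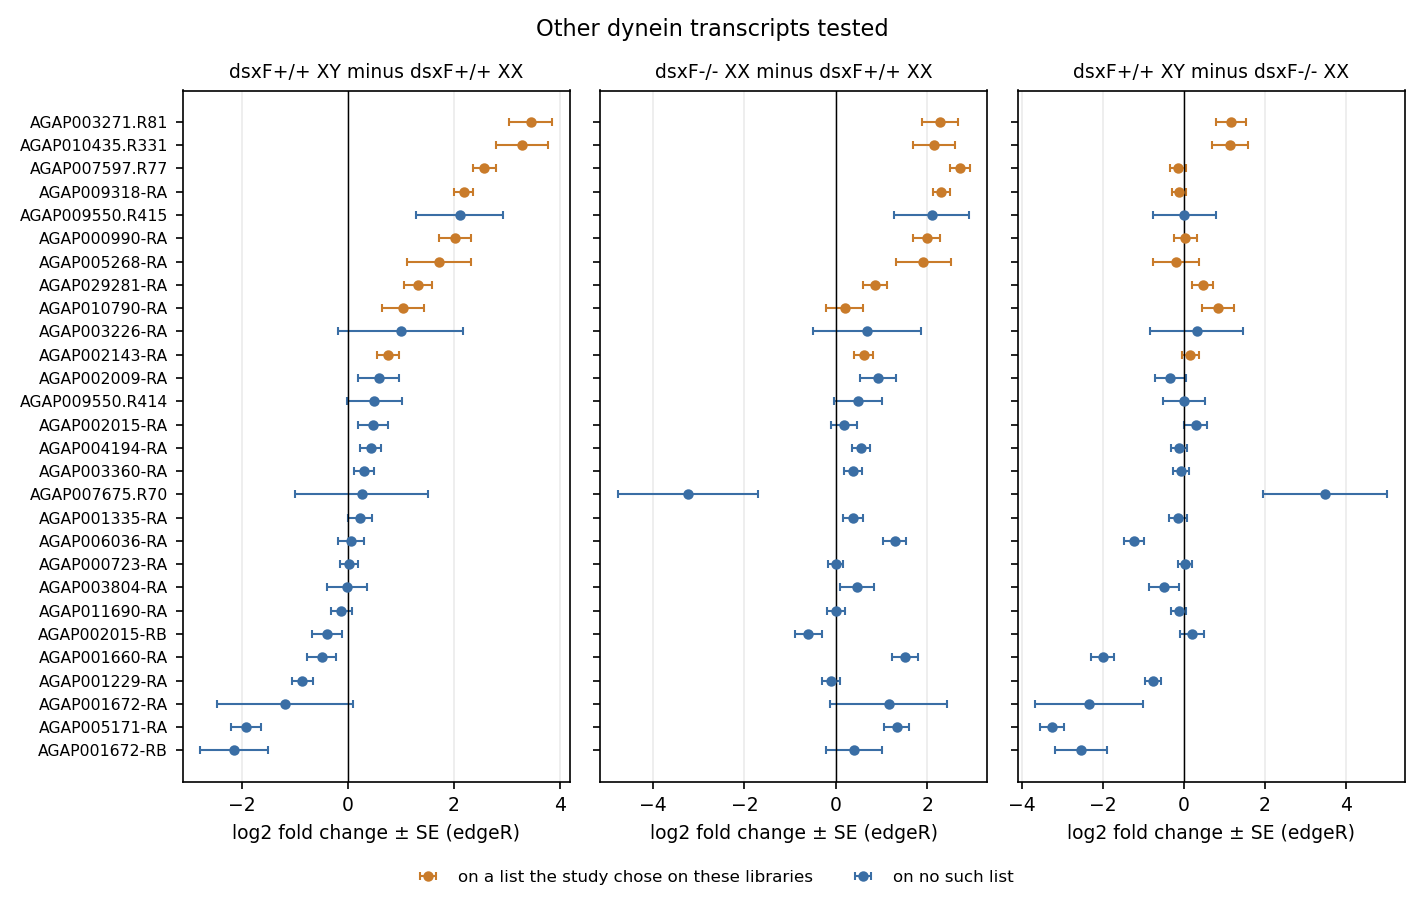
Log2 fold change (points) and its standard error (bars) from edgeR for the 28 tested transcripts of other genes on the study's dynein list, sorted by MvF, with MvF on the left, IvF in the middle and MvI on the right. Orange marks transcripts on a list that the study chose on these libraries and blue the others, among which AGAP005171-RA is at -1.92, 1.33 and -3.26.

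Some dyneins had a level in intersex above both controls. Of the 41 dynein transcripts tested, 4 were called both higher in IvF and lower in MvI, a pattern held by 45 of 12379 transcripts (0.364%). These were AGAP011539-RA, AGAP005171-RA, AGAP001660-RA and AGAP006036-RA. The first 2 were also called lower in MvF, which 11 transcripts (0.0889%) were. Without female replicate 3 none of the 4 kept both calls, and 22 transcripts of all held the pattern. The count of 4 fell to 1 without any 1 of the intersex libraries and to 3 without female replicate 1, without male replicate 3 or with a replicate block, and it was 5 without female replicate 2, with AGAP001672-RB added. At an adjusted p under 0.01 no dynein held the pattern, while 14 transcripts of all did. The pattern was noticed after the values were seen, and no test was made of how often it occurs among dyneins.

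AGAP001660-RA had 56.7, 56.8 and 50.6 counts in females, 164.6, 137 and 167 in intersex and 34.8, 32.9 and 48.2 in males. It rose by 1.51 ± 0.28 on the log2 scale in IvF (edgeR adjusted p = 0.0112) and stood at -2.01 ± 0.29 in MvI (adjusted p = 0.00396). The IvF call was lost without female replicate 3 (adjusted p = 0.0514) or intersex replicate 1 (adjusted p = 0.0535). AGAP006036-RA had 631, 510.2 and 454 counts in females, 1051, 1243 and 1607 in intersex and 620.3, 397 and 639 in males, so that both controls overlapped and every intersex library lay above them. It rose by 1.29 ± 0.25 in IvF (edgeR adjusted p = 0.0137) and stood at -1.24 ± 0.25 in MvI (adjusted p = 0.0174). Without female replicate 3 or intersex replicate 3 its IvF call was lost (adjusted p = 0.0656 and 0.0555), and without intersex replicate 2 or 3 its MvI call (adjusted p = 0.0509 and 0.0643).

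Transcripts outside the dyneins with the most similar course over the 9 libraries were sought for both axonemal intermediate chains, among 10096 transcripts with a mean of at least 5 CPM. Nearest to AGAP011540-RA was AGAP011462-RA (Pearson r = 0.998 of log2 CPM, n = 9 libraries), with means of 1488 counts in females, 11570 in intersex and 30220 in males. AGAP005556-RA (r = 0.996) and AGAP006627-RA (r = 0.994) followed. Nearest to AGAP008689-RB was AGAP007348-RA (r = 0.998), with means of 514, 1850 and 3368, then AGAP002607-RA (r = 0.994) and AGAP028030-RA (r = 0.992). The libraries share 3 groups, and a transcript with the same order of group means reaches a high r, so that these are descriptions of likeness only.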

How the data were processed

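RNA of pooled pedicels was sequenced in 9 libraries of 3 groups. Libraries were prepared from low-input RNA with a SMART-Seq v4 kit. After FastQC and MultiQC the authors ran kallisto against the VectorBase transcript set AgamP4.12, and versions of these tools are not given in the sources used here. The deposited table holds estimated counts per transcript and library, unscaled for depth or length, so 31.5 to 33.1% of transcripts per library have a count that is not whole. STAR served for viewing, and the authors compared groups with DESeq2. Of the columns of values 0 were left over.

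Rounded estimated counts were fitted with edgeR 4.0.16 under R 4.3.3 (TMM, filterByExpr by group, 1 fit of the 3 groups, quasi-likelihood test, Benjamini-Hochberg over 12379 transcripts or 10479 gene sums, called at an adjusted p under 0.05), which was tested on simulated data. The standard error is the log2 fold change over the square root of F. The members and lists, and the tests, were chosen with earlier results of these data known. Named are all transcripts of the 10 genes, up to 4 other dynein transcripts per direction with the smallest MvF p, and the 3 transcripts most like each axonemal intermediate chain. AGAP001660-RA and AGAP006036-RA were added after their values were seen. Whether the 3 libraries of a group came from separate cohorts is given only as biological repeats, and p-values measure the spread between these libraries. Alternatives were DESeq2 1.42.0, limma-voom (limma 3.58.1), DESeq2 size factors, other filters on low counts, only the groups compared, an adjusted p under 0.01, the replicate number or the run of sample-sheet numbers in the column names as a block, and each library left out. Control females and males in the same run of sheet numbers had r of 0.252, 0.269 and 0.520. Same-numbered pairs of these groups from different runs had r of 0.229 and -0.0024, so that only the pair of second libraries stood out. Pairs of an intersex with a control library in the same run had r from -0.344 to 0.283. MvF calls changed by the block on these runs are given beside the result. A fit without replicate 2 of either control was added once the data had been seen. Marker lists of other tissues (olfactory neurons, fat body, muscle, eye and hemocytes) could not be tied to identifiers, since the reference table matched 0 of them, and carry-over was not tested. Sequences and chromosome positions were not analysed here.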

Additional observations from a re-analysis of the deposited data

How the results depend on the processing

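No called result changed direction under the alternatives run. With DESeq2 the 13 transcripts had 10 higher calls in IvF instead of 6, and the other dyneins had 1 higher call in MvI instead of 0, as they also had with only the groups compared. At an adjusted p under 0.01 the 13 transcripts had 2 higher calls in IvF and 1 in MvI, and the other dyneins had 1 lower call in MvF, 4 higher in IvF and 2 lower in MvI, by a stricter threshold alone. Without the second library of both controls, an alternative added after seeing the data, 10 of the 13 were higher in IvF, and of the other dyneins 13 were higher in IvF and 1 in MvI. Leaving out each library gave 2 to 8 higher calls of the 13 in IvF and 1 to 2 in MvI. For the other dyneins it gave 6 to 13 higher and 2 to 3 lower calls in MvF, 4 to 13 higher in IvF, and 0 to 2 higher and 2 to 4 lower in MvI. Gene sums had 7 to 9 higher calls in MvF, 3 to 8 in IvF and 1 to 3 in MvI, and the usage call of AGAP008689-RA in IvF varied between 0 and 1. A fit without a library has fewer samples, and the cause of each change beyond that was not tested. Positions ranged from 1.08 to 1.46 for AGAP000320-RA, 1.26 to 1.67 for AGAP000320-RC, 0.53 to 0.94 for AGAP006887-RA, 0.63 to 0.68 for AGAP008689-RB and -0.29 to -0.25 for AGAP011539-RA.

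Replicate numbers are shared by the groups in the labels, but same-numbered libraries did not deviate together throughout. The r ran from 0.520 for female and male 2, which also share a run of sheet numbers, to -0.344 for female and intersex 1. With a replicate block the 13 transcripts had 8 higher and 1 lower calls in MvF, 5 higher in IvF and 2 higher and 1 lower in MvI. The other dyneins had 8 higher and 2 lower in MvF, 8 higher in IvF and 3 lower in MvI under this block. The part of depth in the calls was not tested. Among the 13 transcripts, the lowest counts were those of AGAP004030-RA and AGAP011441-RA in females, of AGAP004030-RA in intersex and of AGAP011539-RA in males. Of the other dyneins, AGAP001660-RA had 32.9 to 48.2 normalized counts in males, and some tested ones, such as AGAP007675.R70, came near 0 in single libraries.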
